A study of Drosophila melanogaster with 4 samples.

Results

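The vacuolar proton pump, or V-ATPase, is encoded in Drosophila melanogaster by genes whose symbols begin with Vha. They were found here as the 32 probe sets, of 14009 on the array, whose updated gene symbol has that beginning, and these stand for 29 of the 10843 genes named. Probe sets whose mean over the 4 columns was no lower than the median value of the whole table (-0.18) were taken as broadly expressed, which gave 22 probe sets for 21 genes. The other 10 probe sets lay below it. They belong to 8 weak paralogues and to Vha16-1 and VhaPPA1-1, each of which also has a probe set above the median. Just inside the limit were Vha36-3, with a mean level of -0.034, and Vha16-4 at -0.076, and just outside it were VhaPPA1-2 at -0.23 and Vha36-2 at -0.40. No probe set was named for Vha68-1, Vha68-2, Vha16-3 or Vha100-3, which were not analysed here, so the catalytic A subunit is represented by its weak paralogue Vha68-3 alone.

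The V-ATPase is a rotary pump that spends ATP to move protons into lysosomes, endosomes and secretory vesicles, or out of the cell across specialised epithelia. Its cytosolic V1 sector splits ATP and turns a central stalk, and its membrane V0 sector carries protons through a rotating ring of c subunits past the a subunit. In insects the same pump, set in the apical membrane of the Malpighian tubules, energises fluid secretion, and in the copper cells of the fly midgut it acidifies the gut lumen. Several subunits have more than one gene, of which one is usually used in most tissues and the others in few.

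Whole females of the inbred wild-type Canton S stock were compared in 4 groups, 3 to 4 days old and reared at 25 °C. Virgin females were not mated, and the 3 mated groups were frozen 1 to 3 h after mating. One mated group had met DTA-E males, which come from a transgenic stock made in the Canton S background and make no sperm and no accessory gland proteins (Acps) in the main cells, 96% of the secretory cells of that gland. Another had met spermless males, sons of Canton S males and bw sp tud1 females (the sons of tudor of the labels), which pass Acps only, and the last had met wild-type Canton S males, which pass sperm and Acps. For each group 50 pooled flies gave 2 RNA extractions and 4 chips, but the table holds 1 value column per group, so no replicate spread and no test were available. Each group is a pool of whole animals, and fewer cells of a type cannot be told apart from less RNA per cell.

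The deposited values are logarithms; the labels and headers do not name the base, and they were read as log2. A level below is a gene's value in 1 column after subtraction of that column's offset, which sets the medians of the 4 columns over kept probe sets equal, and a difference is 1 level less another. The correlation between columns across probe sets was 0.993 to 0.996. Between probe sets of the same gene, the SD of a difference was 0.077 to 0.093, which does not cover variation between pools of flies. A difference of 0.263, or 1.2-fold, was used to count genes, and the same difference would be 1.301-fold if the logarithms were natural. Columns also differed in spread, with an SD of 1.07 in virgin and DTA-E-mated and 1.03 in spermless-mated and wild-type-mated females. For the actin controls, the excess of the 3' over the 5' probe set, which reads RNA integrity, was 1.95 in virgin, 2.26 in DTA-E-mated, 2.02 in spermless-mated and 1.97 in wild-type-mated females, and its part in the values below was not tested. Of genes that mark adult females, the yolk protein gene Yp1 was at 5.53 to 5.65 and the oocyte gene osk at 2.80 to 3.04.

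Differences between the 4 groups were small in most pump genes, though not smaller than in most other genes. Over the 21 broadly expressed genes the gap between the highest and the lowest column had a median of 0.16, or 1.11-fold. For all 5924 genes kept the median was 0.12, and 70.9% of them had a smaller gap than the pump gene median. Among the pump genes the gap ran from 0.042 in Vha26 to 0.32 in Vha100-5. Only Vha44 and Vha100-5 spanned more than 1.2-fold, which is 2 of 21, and 9.52% of all genes kept did so. The pump genes were therefore counted past 1.2-fold about as often as any gene. Their columns were less evenly ordered. The lowest column was the wild-type-mated in 8 genes, the virgin in 8, the DTA-E-mated in 4 and the spermless-mated in 1. Over all genes the corresponding shares were 26.6%, 25.9%, 20.1% and 27.5%. The spermless-mated column was highest in 10 of 21 genes against 21.9% of all genes, and the wild-type-mated column in 7 against 29.4%. In columns as deposited, without centring, the spermless-mated column was highest in 6 pump genes against 10.6% of all genes, and lowest in 5 against 46.1%. After quantile normalization it was highest in 8 against 20.6% and lowest in 3 against 29.8%.

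**Figure D1:**
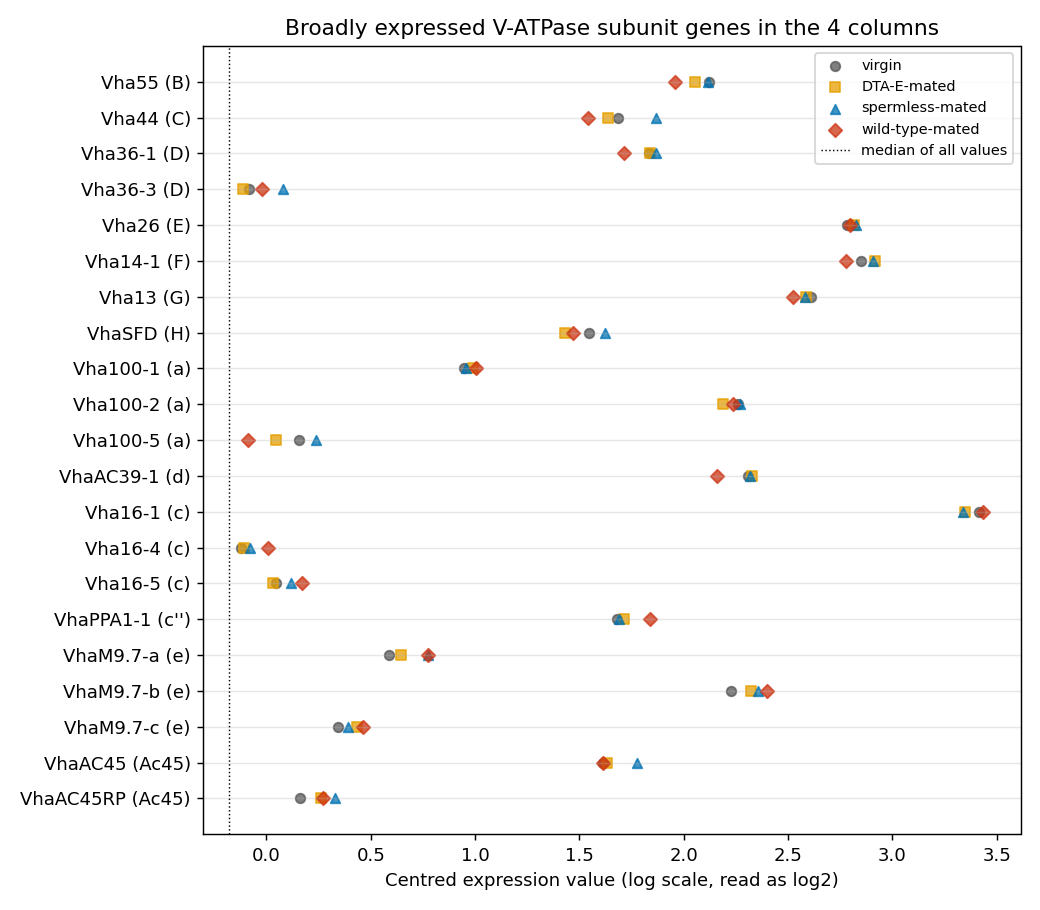
Centred levels (x axis, log2) of the 21 broadly expressed V-ATPase genes, with the subunit in brackets; each symbol is 1 column, and there is no error bar because each group has 1 column. The 4 symbols of a gene lie within 0.32 of each other, and levels of different genes come from different probes and are not compared.

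Among the 8 genes of the V1 sector, the wild-type-mated column was below the spermless-mated column in all 8, against 44.2% of all genes. Vha44, which encodes the C subunit that ties V1 to V0, had levels of 1.68 in virgin, 1.64 in DTA-E-mated, 1.86 in spermless-mated and 1.54 in wild-type-mated females. The spermless-mated level was the highest and the wild-type-mated level the lowest. The wild-type-mated minus spermless-mated difference was -0.32, or 1.25-fold lower, and it was -0.28 to -0.34 under every scaling and filter tried.

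Vha55, encoding the nucleotide-binding B subunit, had levels of 2.12 in virgin, 2.05 in DTA-E-mated, 2.12 in spermless-mated and 1.96 in wild-type-mated females. Virgin and spermless-mated females were alike, and the wild-type-mated level was lower, with a difference of -0.16 from each. Vha36-1, the main D subunit gene of the central stalk, was at 1.83, 1.84, 1.87 and 1.72 in the same order of columns. Here the first 3 columns lay within 0.031 of each other and the wild-type-mated difference from spermless-mated females was -0.15. Vha14-1, the F subunit gene of the same stalk, had levels of 2.85, 2.91, 2.91 and 2.78, again lowest after wild-type males.

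The genes of the E and G subunits, which form the peripheral stalks, varied least within V1. Vha26, the E subunit gene, was at 2.78, 2.82, 2.83 and 2.80, the narrowest span of the 21 genes. Vha13, encoding the G subunit, was at 2.61, 2.58, 2.58 and 2.53, lowest after wild-type males. Their spans of 0.042 and 0.083 were below and within the range of that SD between probe sets. VhaSFD encodes the H subunit, which regulates the pump, and is the only broadly expressed member read by 2 kept probe sets. The wild-type-mated minus spermless-mated difference was -0.23 in 1 of them and -0.074 in the other. Both were highest in spermless-mated females, at 1.71 and 1.53, but the lowest column was the wild-type-mated in the first and the DTA-E-mated in the second. The D subunit paralogue Vha36-3, near the limit of the broad set, had levels of -0.083, -0.11, 0.080 and -0.020.

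Over the V1 genes the median wild-type-mated minus spermless-mated difference was -0.14, and it was -0.11 with 8 of 8 genes lower in columns as deposited and -0.15 with 8 of 8 lower after removal of the intensity trend, but -0.092 with 5 lower, 2 higher and 1 equal after quantile normalization. For the 21 genes together 14 were below 0 in that comparison, with a median of -0.056, and 44.2% of all genes were below 0. Past 1.2-fold were 2 of 21, both lower, where 5.38% of all genes passed it either way. Against virgin females, 6 of 8 V1 genes had a lower wild-type-mated level, against 46.7% of all genes, with a median difference of -0.082.

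The V0 sector was mixed. Its 7 broadly expressed genes for c, c'' and e subunits all had a higher level in wild-type-mated than in virgin females, against 53.3% of all genes. The 7 encode small hydrophobic proteins of the rotating ring and its surroundings. Their grouping was made after the values were seen, so the counts describe it and carry no weight as a test. VhaPPA1-1, the c'' gene, had levels of 1.68 in virgin, 1.72 in DTA-E-mated, 1.69 in spermless-mated and 1.84 in wild-type-mated females. Its wild-type-mated level stood above the other 3, which lay within 0.035 of each other, and the difference from virgin females was 0.16. The second VhaPPA1-1 probe set, below the limit at a mean of -0.66, gave 0.099 there. Against spermless-mated females it gave 0.010, where the kept probe set gave 0.15.

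VhaM9.7-b, the main e subunit gene, was at 2.23, 2.32, 2.36 and 2.40, with virgin females lowest. The e paralogue VhaM9.7-a was at 0.59, 0.64, 0.78 and 0.77, also lowest in virgin females and nearly equal in the last pair. Differences of wild-type-mated from virgin females were 0.17 and 0.19, above the 95th percentile of all genes (0.16). VhaM9.7-c, another e paralogue, had levels of 0.35, 0.43, 0.39 and 0.46. Vha16-1, which encodes the major c subunit of the ring, had levels of 3.42, 3.35, 3.34 and 3.44. Its highest and lowest columns were the same wild-type-mated and spermless-mated pair as in Vha44, in the opposite order, and their difference of 0.098 became 0.32 after quantile normalization. In the second Vha16-1 probe set, below the limit at a mean of -1.37, the centred difference was -0.017. Vha16-4, at -0.12, -0.11, -0.079 and 0.0087, and Vha16-5, at 0.045, 0.032, 0.12 and 0.17, are c paralogues near the limit of the broad set.

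Over these 7 genes the median difference from virgin females after wild-type males was 0.13, and it was 0.11 with 6 of 7 higher in columns as deposited, 0.19 with 7 of 7 after quantile normalization and 0.10 with 7 of 7 after removal of the intensity trend. Against DTA-E-mated females the median was 0.12, with 7 of 7 higher under each of the 4 scalings. Of all genes 2822 of 5924 were higher there, and 1845 of the 2994 with a mean below the 75th percentile. The spermless-mated column was lower than the wild-type-mated in 6 of 7 and in 3307 of all 5924 genes. The median difference of the 7 was 0.073. Kept markers of the Malpighian tubule, a tissue that uses the pump heavily, were mostly higher in mated than in virgin females. Of 10 names, 6 were on the array and 5 kept. After wild-type males 4 of 5 were higher, against 53.3% of all genes, and their mean level was 0.41 in virgin, 0.56 in DTA-E-mated, 0.56 in spermless-mated and 0.53 in wild-type-mated females. The largest difference was in salt, which was higher than in virgin females by 0.28, 0.29 and 0.20 in the mated columns. The marker on the array that was not kept, Irk3, differed from virgin females by -0.11, 0.0255 and -0.12 in the same columns. Unlike the 7 V0 genes, 4 of 5 markers were lower after wild-type males than in DTA-E-mated females, with a median of -0.0225. Against spermless-mated females 4 of 5 were also lower, with a median of -0.037. Of all genes 52.4% and 44.2% were lower in these comparisons. The part of these markers in the V0 and V1 values was not tested.

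**Figure D2:**
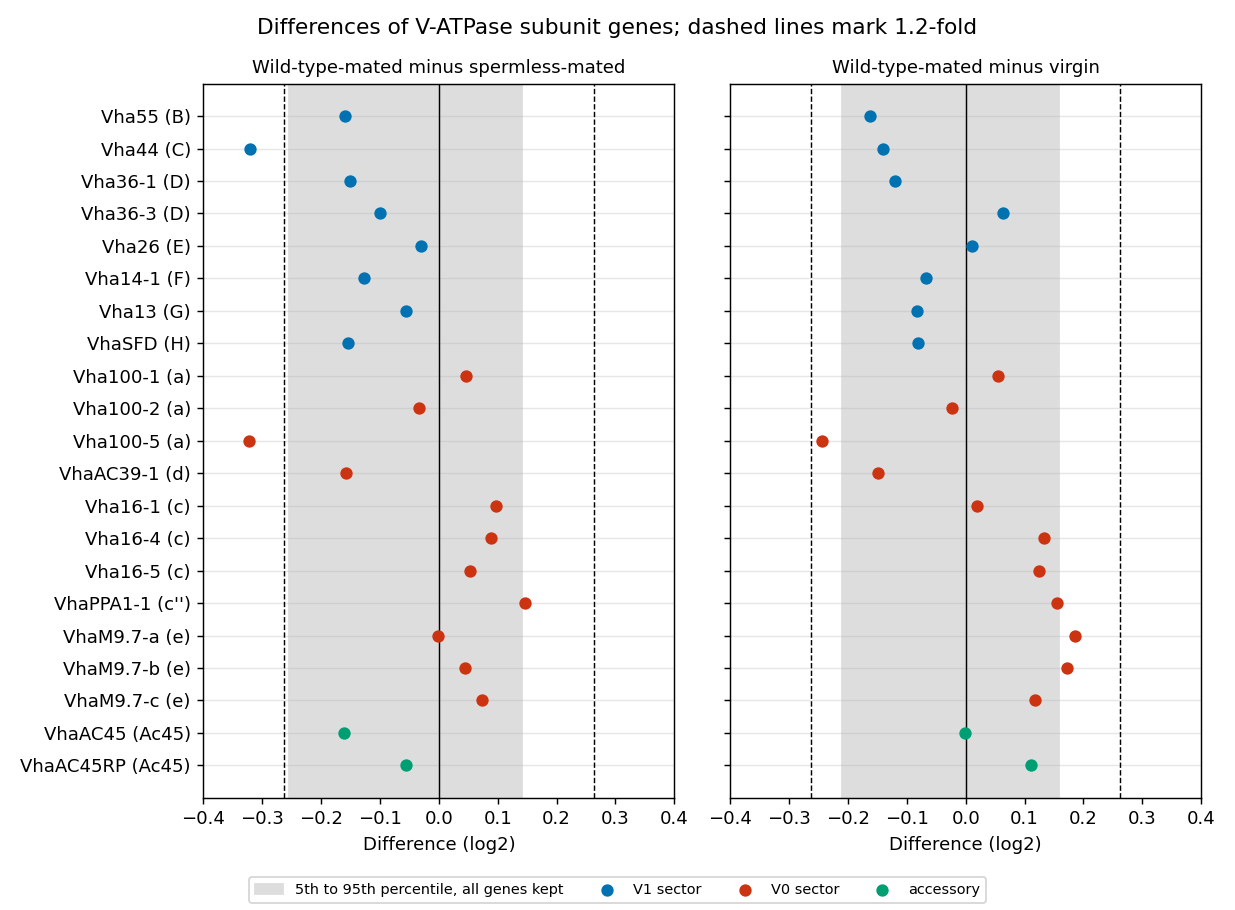
Differences (x axis, log2) of each broadly expressed V-ATPase gene between wild-type-mated and spermless-mated females (left) and between wild-type-mated and virgin females (right); 1 point is 1 gene, grey marks the 5th to 95th percentile of all genes kept. On the left all 8 V1 genes lie below 0 and only Vha44 and Vha100-5 lie past 1.2-fold; on the right all 7 c, c'' and e genes lie above 0.

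Among the a and d subunits of V0, 3 of 4 genes were lower after wild-type than after spermless males, against 44.2% of all genes. After quantile normalization 2 of 4 were. Vha100-1, the a paralogue known for its role in neurons, had levels of 0.948, 0.992, 0.957 and 1.003 in virgin, DTA-E-mated, spermless-mated and wild-type-mated females. Vha100-2, a widely used a paralogue, was at 2.26, 2.19, 2.27 and 2.24. Their spans were 0.056 and 0.083. Vha100-5 was the member that varied most, with levels of 0.16, 0.044, 0.24 and -0.086. It was highest after spermless males and lowest after wild-type males, the difference between them was -0.32 (1.25-fold), and it was -0.30 to -0.34 under the alternatives that kept it. VhaAC39-1, the d subunit gene that links the stalk to the ring, was at 2.31, 2.33, 2.32 and 2.16. Its first 3 columns lay within 0.017 of each other, and its wild-type-mated minus spermless-mated difference was -0.16, a size like those of Vha55 and Vha36-1 in V1.

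The accessory gene VhaAC45, which encodes an Ac45 protein that helps assemble and direct the pump, had levels of 1.62, 1.63, 1.78 and 1.61. Only the spermless-mated column stood apart, higher than virgin females by 0.16. VhaAC45RP, a related gene, was at 0.16, 0.26, 0.33 and 0.27, lowest in virgin females. ATP6AP2, formerly VhaM8.9 and so outside the symbol rule, encodes another accessory protein and had levels of 1.97, 1.93, 1.99 and 1.74. It was lowest after wild-type males, with a difference of -0.23 from virgin and -0.26 from spermless-mated females.

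Pump gene levels in females mated to DTA-E males, without sperm or main-cell Acps, were close to those in virgin females. The DTA-E-mated minus virgin difference had a median of 0.016 over the 21 genes and ran from -0.12 in VhaSFD to 0.10 in VhaAC45RP. Of the 21, 9 were below 0, with 45.0% of all genes, and 0 were past 1.2-fold, with 2.75% of all genes. The median changed sign to -0.012 after removal of the intensity trend. The wild-type-mated minus virgin comparison had a median of 0.011, or -0.014 in columns as deposited, where the median of all genes was -0.017. Medians were -0.082 for V1, with 2 of 8 genes higher, and 0.13 for the c, c'' and e genes, a group made after the values were seen. In this comparison 10 of 21 were below 0 against 46.7% of all genes, and 0 were past 1.2-fold against 4.91%. Nearest to 1.2-fold was Vha100-5, at -0.24. Vha100-5 passed it in columns as deposited (-0.27), after quantile normalization (-0.27), with the trend removed (-0.28) and without a filter (-0.28).

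Acps without sperm were compared through spermless-mated against DTA-E-mated females. The difference was 0.23 in Vha44, 0.19 in Vha36-3, Vha100-5 and VhaSFD, 0.14 in VhaAC45 and 0.13 in VhaM9.7-a. Genes below 0 numbered 7 of 21 against 51.0% of all genes, and 0 of 21 were past 1.2-fold against 3.46%. The median of 0.032 became -0.017 in columns as deposited, where the median of all genes was -0.0515. This difference varied with level over the whole table: kept genes with a mean at or above the 75th percentile of all values had a median of -0.037, and those below it had a median of 0.028. With that trend removed 19 of 21 pump genes were higher, with a median of 0.061 against 0.0041 for all genes, and Vha44 passed 1.2-fold at 0.29.

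The other comparisons held no more large differences. Spermless-mated against virgin females gave a median of 0.044, with 3 of 21 below 0 against 49.0% of all genes and 0 past 1.2-fold against 4.02%. In columns as deposited 11 of 21 were below 0 there, with a median of -0.0064, and the median of all genes was -0.048. Sperm and Acps together, read from wild-type-mated against DTA-E-mated females, gave a median of 0.011. In columns as deposited it was -0.013, and the median of all genes was -0.029. In that comparison 9 of 21 were below 0 against 52.4%, and 0 were past 1.2-fold against 2.45%. VhaAC39-1 at -0.17 and Vha16-5 at 0.14 marked its ends. These comparisons share columns with those above and are not independent of them.

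**Figure D3:**
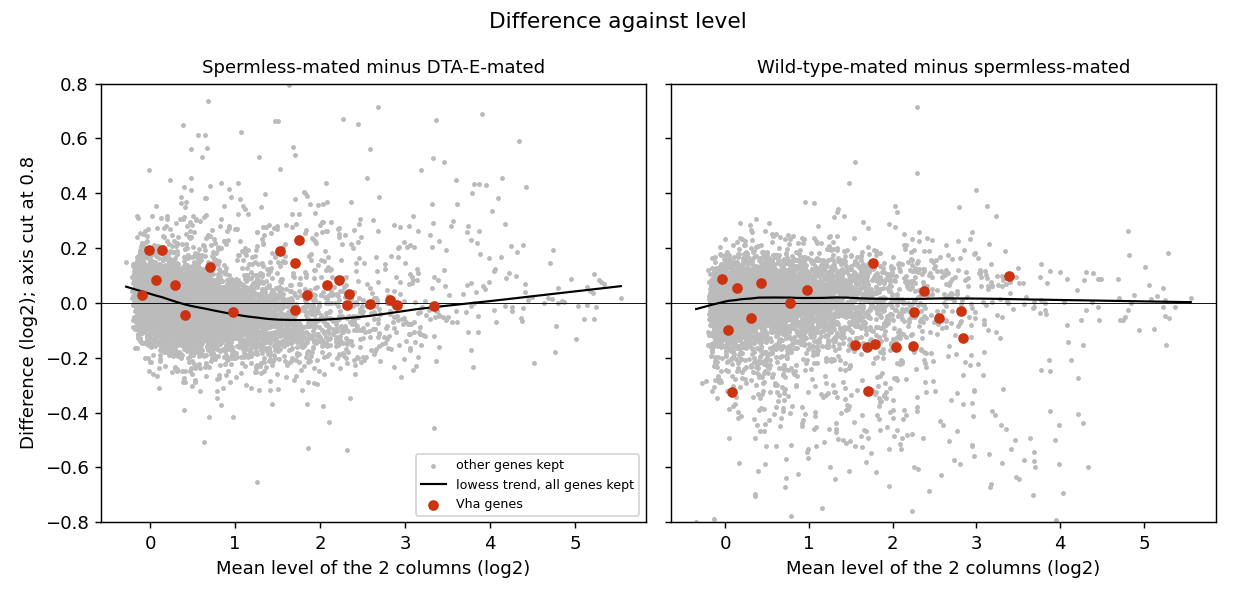
Difference (y axis, log2) against mean level of the 2 columns (x axis, log2) for all genes kept, with Vha genes as large points and a lowess line over all genes; points beyond 0.8 are not drawn. In spermless-mated minus DTA-E-mated females (left) the line is below 0 at levels from about 1 to 3, where most Vha genes lie above it; in wild-type-mated minus spermless-mated females (right) the line is nearly flat.

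The weak Vha probe sets differed between columns much like all weak probe sets. Their mean levels ran from -1.37 in the second Vha16-1 probe set to -0.23 in VhaPPA1-2, and the 23 foreign control probe sets averaged -1.26 to -1.19. All 10 were higher in spermless-mated than in DTA-E-mated females, with a median difference of 0.10. However, 94.0% of all 6234 named probe sets below the limit were also higher, with a median of 0.095. The same held for wild-type-mated against virgin females, where 9 of 10 were higher and 85.4% of all weak probe sets were.

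Vha100-4 was lower after wild-type males than in any other group. It encodes an a subunit known from the acid-secreting copper cells of the midgut, and its levels were -0.59 in virgin, -0.69 in DTA-E-mated, -0.39 in spermless-mated and -0.77 in wild-type-mated females. Spermless-mated females were highest and wild-type-mated lowest, with a difference of -0.38. This is the order of columns seen in Vha100-5. Vha100-4 lies directly beside Vha100-2 on chromosome arm 3R, where the same difference was -0.033. Of 6 markers of the acid region, 5 were on the array and 3 kept, and their mean level was 0.39 in virgin, 0.34 in DTA-E-mated, 0.41 in spermless-mated and 0.31 in wild-type-mated females. Among them the carbonic anhydrase gene CAH7 was at 0.33, 0.22, 0.26 and 0.081, Acer at 0.55, 0.50, 0.67 and 0.51 and the copper importer gene Ctr1B at 0.29, 0.30, 0.29 and 0.33. Their part in the Vha100-4 and Vha100-5 values was not tested.

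The remaining weak paralogues showed little. Vha68-3 (A subunit) was at -1.04 to -0.91, Vha14-2 (F) at -1.21 to -1.08, Vha36-2 (D) at -0.46 to -0.34 and VhaM9.7-d (e) at -0.89 to -0.78. Vha16-2 (c) lay at -0.74 to -0.66. VhaAC39-2, the weak d paralogue, ran from -1.003 in virgin to -0.81 in wild-type-mated females, the widest span among them after Vha100-4. Of 20 names of testis and spermatid markers, which stored sperm or seminal fluid could bring, 13 were on the array and 4 kept. Their mean level was 0.34 in virgin, 0.34 in DTA-E-mated, 0.42 in spermless-mated and 0.43 in wild-type-mated females. Their median wild-type-mated minus spermless-mated difference was -0.0048. Most named probe sets below the limit were also higher than in virgin females, 92.5% of them in spermless-mated and 85.4% in wild-type-mated females. Over all of these probe sets the median differences were 0.096 and 0.0605. Mst84Db and Mst84Dd, among the 4 kept, lay near that limit, at -0.099 and -0.050 in virgin females. Mst84Dc and Mst98Ca lay above it, at 0.69 and 0.80. After wild-type males Mst84Db and Mst84Dd were higher by 0.098 and 0.088, and Mst84Dc and Mst98Ca by 0.10 and 0.086. With the intensity trend removed the 4 were higher there by 0.051 to 0.109. The part of the shift of weak probe sets in the marker values was not tested.

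The mitochondrial ATP synthase, a related rotary enzyme that runs in the opposite sense and makes ATP, differed far more between the same columns. Its 14 kept genes had a median wild-type-mated minus spermless-mated difference of -0.43, and 9 of 14 were more than 1.2-fold lower, against 4.86% of all genes, and after quantile normalization the median was -0.27 and 8 were lower. The alpha subunit gene blw had levels of 4.30 in virgin, 4.21 in DTA-E-mated, 4.63 in spermless-mated and 4.03 in wild-type-mated females. The beta subunit gene ATPsynbeta was at 1.69, 1.76, 1.88 and 1.66. Both medians against spermless-mated females, that of the ATP synthase and that of the V1 genes, were below 0. Vha16-1, the c subunit gene of the V-ATPase ring, was higher there by 0.098 in its kept probe set. ATPsynC, the ring gene of the mitochondrial enzyme, had a wild-type-mated minus spermless-mated difference of -0.23. No test of the difference between the enzymes could be made.

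**Figure D4:**
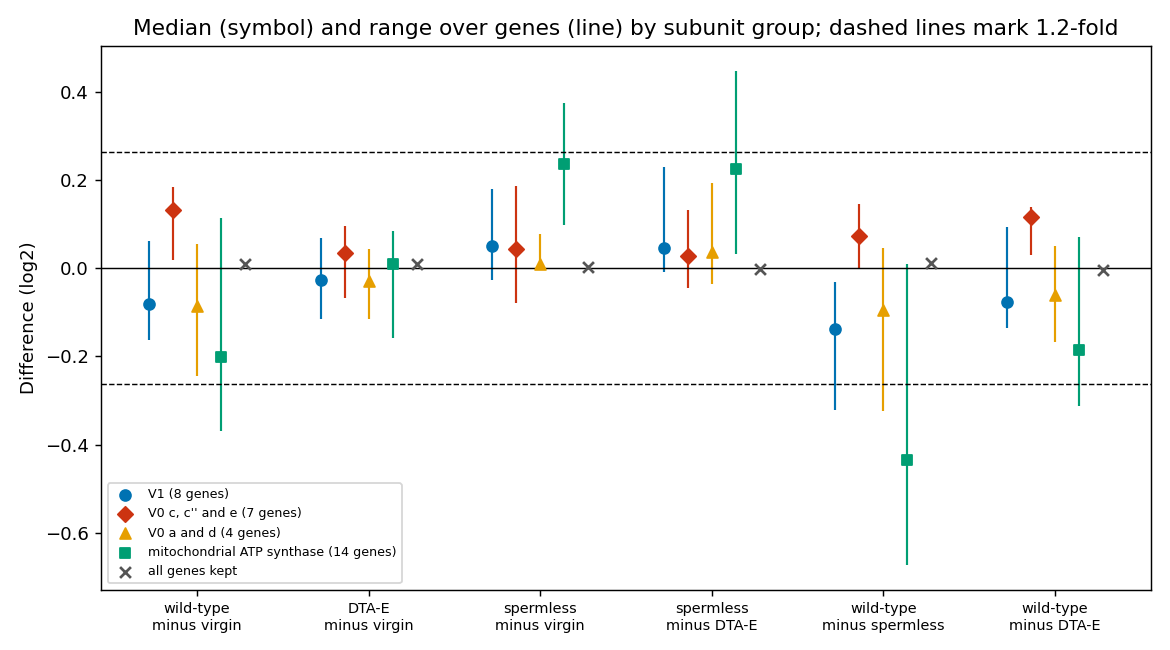
Median difference (symbols, y axis, log2) and the lowest to highest gene (lines) for V1, the c, c'' and e genes, the a and d genes and the mitochondrial ATP synthase in each of the 6 comparisons, with the median of all genes kept as crosses. The c, c'' and e grouping was made after the values were seen. Medians of V1 and the c, c'' and e genes lie on opposite sides of 0 in the 3 comparisons with the wild-type-mated column. They are -0.14 and 0.073 against spermless-mated females, where the ATP synthase reaches -0.43. The 2 medians are also on opposite sides in DTA-E-mated minus virgin females, at -0.027 and 0.035. With the intensity trend removed (not drawn), the V1 median in wild-type-mated minus DTA-E-mated females is -0.0081, with 4 of 8 genes below 0.

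Genes that work with the pump were counted past 1.2-fold in the same way. Of 13 names for assembly and control, 5 were kept, among them ATP6AP2 (above). Rbcn-3B, part of the rabconnectin complex that assembles V1 onto V0, was at 0.13 in virgin, 0.022 in DTA-E-mated, 0.063 in spermless-mated and 0.13 in wild-type-mated females. In this list 0 of 5 genes passed 1.2-fold in any of the 6 comparisons, where 9.52% of all genes did, although ATP6AP2 passed it against spermless-mated females with the trend removed (-0.27). Among nutrient sensing genes at the lysosome, where the pump helps to recruit the TOR kinase complex, 9 were kept and 0 passed 1.2-fold in any comparison. Both lists are short, so counts of 0 lie near the share of all genes. After quantile normalization path, an amino acid transporter gene, passed 1.2-fold in wild-type-mated minus DTA-E-mated females at 0.27. The largest difference was that of mio, which encodes a regulator of TOR signalling, higher in wild-type-mated than in virgin females by 0.22, and by 0.43 in its brightest probe set alone.

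Lysosomal genes, whose enzymes need the acid that the pump supplies, were mostly lower than in virgin females after wild-type and DTA-E males. Of 19 kept, 15 were below 0 in wild-type-mated minus virgin females, against 46.7% of all genes, with a median of -0.098. In DTA-E-mated minus virgin females 17 were below 0, against 45.0%, with a median of -0.058. In spermless-mated minus virgin females 10 were below 0, against 49.0%, with a median of -0.0086. In columns as deposited 17 were below 0 there, with a median of -0.059, and the median of all genes was -0.048. Gal, encoding a beta-galactosidase, had levels of 0.082 in virgin, -0.19 in DTA-E-mated, -0.021 in spermless-mated and -0.25 in wild-type-mated females, and was the only one past 1.2-fold in either comparison. The aspartic protease gene cathD was at 2.23, 2.22, 2.21 and 2.00. Of 17 ion transport genes kept, 3 spanned more than 1.2-fold over the columns, where 9.52% of all genes did. They were CAH1, SERCA and nrv1, with wild-type-mated minus spermless-mated differences of -0.50, -0.31 and 0.27. CAH1, a carbonic anhydrase gene, varied most, at 1.58, 1.46, 1.66 and 1.16, and its wild-type-mated minus virgin difference was -0.42.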

How the data were processed

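The deposited values are logarithms of expression per probe set, made by the authors from Affymetrix Drosophila arrays, and were read as log2, an assumption; the log base, the summary method and how 4 chips became 1 column are not given in the sources used here. Gene names came from the annotation of the array platform, brought up to date through the Entrez identifier with RefSeq's Release 6 gene list: 12442 had 1 symbol, of which 12393 were found there, 326 had several, 1197 had none, and 44 were controls. Only those with 1 symbol were used. A probe set was kept when its mean over the 4 columns reached the median value of the whole table; 6208 were kept, for 5924 genes. Columns were centred on their median over kept probe sets (offsets up to 0.031), and kept probe sets of a gene were averaged. With 1 column per group no test was made. Genes were counted below 0 and past 1.2-fold beside the same share of all genes. The members and lists were chosen with earlier results of these data known. All Vha genes could be named, and of each other list the 4 genes with the largest difference and the genes a quality or group value rests on. ATPsynbeta and ATPsynC, outside that rule, were chosen after their values were seen. Alternatives were columns as deposited, quantile normalization, removal of a lowess trend (fraction 0.3, 3 iterations), filters on the highest column, at the 75th percentile or none, the brightest probe set, and thresholds of 1.1-fold, 1.5-fold and 2-fold. The calculation was tested on simulated data. No sequences were read here. Python 3.11.15, numpy 2.4.6, pandas 2.3.3, statsmodels 0.14.6 and matplotlib 3.10.9 were used.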

Additional observations from a re-analysis of the deposited data

How the results depend on the processing

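No paired analysis was possible because each group has 1 column. Of 102 values recomputed with other scalings, filters, probe set choices and thresholds, 87 stayed within the spread between probe sets or, for counts, within 1.5 times, and 15 did not. Each of those 15 was a count. In columns as deposited 11 of 21 genes were below 0 in spermless-mated minus virgin and 11 in spermless-mated minus DTA-E-mated females. The medians of all genes there were -0.048 and -0.0515, and with centring they were 0.0022 and -0.0026. After removal of the intensity trend 2 of 21 pump genes were below 0 in spermless-mated minus DTA-E-mated females. Quantile normalization gave 9 of 21 in wild-type-mated minus spermless-mated females. With the filter at the 75th percentile 0 of 15 genes were below 0 in spermless-mated minus DTA-E-mated females. Without a filter, over 29 genes, the counts were 11 in spermless-mated minus virgin, 12 in spermless-mated minus DTA-E-mated and 17 in wild-type-mated minus DTA-E-mated females. Past 1.1-fold there were 7 genes in wild-type-mated minus virgin, 5 in spermless-mated minus virgin, 5 in spermless-mated minus DTA-E-mated, 8 in wild-type-mated minus spermless-mated and 2 in wild-type-mated minus DTA-E-mated females. Past 1.5-fold and past 2-fold there were 0 in wild-type-mated minus spermless-mated females, where 1.2-fold gave 2. The counts past 1.2-fold were also recomputed with the other scalings and filters, a choice made after the values were seen. In wild-type-mated minus virgin females the count was 1 of 21, not 0, in columns as deposited, after quantile normalization and with the trend removed, and 1 of 29 without a filter. In spermless-mated minus DTA-E-mated females it was 1 of 21 with the trend removed and 1 of 15 with the filter at the 75th percentile, which gave 1 of 15 in wild-type-mated minus spermless-mated females. After quantile normalization the last comparison had 3, since Vha16-1 was higher by 0.32. The causes were not tested, apart from thresholds, filters and column offsets, which change the counts by construction. In columns as deposited the offsets that centring removes shift every gene of a comparison alike. The medians of the 21 genes were smaller than the SD between probe sets in all 6 comparisons, and each changed sign under at least 1 alternative, within -0.072 and 0.063.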
